A study of Mus musculus with 14 samples.

Results

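The miR-99, miR-100 and miR-125 microRNAs (miRNAs) were examined in mouse bone marrow and hypothalamus after whole-body gamma irradiation. They were chosen by name, as mmu-miR-99a-5p, mmu-miR-99b-5p, mmu-miR-100-5p, mmu-miR-125a-5p, mmu-miR-125b-5p and mmu-miR-125b-1-3p (written below without the species prefix), and all 6 were present among the 1247 miRNAs of the Agilent mouse array. Male C57BL/6 mice aged 6 to 8 weeks had received 8 Gy or 0 Gy and were sampled 12 h later. Bone marrow was arrayed at 8 Gy and 0 Gy after each of 5 pretreatments. Amifostine at 10 mg/kg and CBLB502 at 0.2 mg/kg went into the abdomen (i.p.) 0.5 h ahead of the dose, and nilestriol at 150 mg/kg went into the stomach (i.g.) 48 h ahead of it. The controls were phosphate-buffered saline (PBS) given i.g. and PBS given i.p. Hypothalamus was arrayed after amifostine and i.p. PBS only, at both doses. Amifostine is a thiol prodrug that scavenges radicals, CBLB502 is a flagellin-derived agonist of Toll-like receptor 5, and nilestriol is a long-acting estrogen. Each of the 14 arrays (10 of bone marrow, 4 of hypothalamus) held RNA pooled from 3 mice, and each combination of tissue, pretreatment and dose had 1 array. No combination therefore had a replicate of its own, and the tests below take their error from how far the pretreatments or conditions differed.

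A mature miRNA guides Argonaute to messenger RNAs that pair with its seed, bases 2 to 8 from the 5′ end. miR-99 and miR-100 share a seed and are known to repress Mtor. miR-125a and miR-125b share another; in mice they are known for their high level in hematopoietic stem cells, where raised miR-125 expands the stem cell pool and represses pro-apoptotic genes such as Bak1. The marrow RNA was of the tissue as a whole, not of sorted stem cells, as far as the labels say. In the nervous system miR-125b is abundant in neurons and glia. A hairpin precursor yields a 5p and a 3p arm, of which usually 1 is kept; miR-125b-1-3p is the less abundant arm of the Mir125b-1 hairpin.

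The mature sequences show which members share a seed, given here in capitals, 5′ to 3′, from RefSeq (GRCm38.p6), in which all 6 names matched.
miR-99a-5p: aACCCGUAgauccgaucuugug
miR-99b-5p: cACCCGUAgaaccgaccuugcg
miR-100-5p: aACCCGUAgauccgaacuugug
miR-125a-5p: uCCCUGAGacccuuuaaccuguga
miR-125b-5p: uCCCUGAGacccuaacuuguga
miR-125b-1-3p: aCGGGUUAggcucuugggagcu
Counted from 1 at the 5′ end, miR-100-5p and miR-99a-5p differed at 1 base, A16U. From miR-99a-5p to miR-99b-5p there were 4 differences, A1C, U11A, U16C and U21C. miR-125a-5p and miR-125b-5p shared their first 13 and last 5 bases. The seed of miR-125b-1-3p was shared with no other member.

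In GRCm38.p6 the genes lie in 3 clusters, each with a let-7 gene between its outer members. Mir100, Mirlet7a-2 and Mir125b-1 span chr9:41531425-41582002 and lie within the span of the long non-coding gene Mir100hg. Mir99a, Mirlet7c-1 and Mir125b-2 span chr16:77598936-77646343. Mir99b, Mirlet7e and Mir125a span chr17:17830188-17830879. Mature miR-125b-5p is encoded on both chromosome 9 and chromosome 16, and the array cannot tell its 2 sources apart, whereas miR-125b-1-3p comes from chromosome 9 alone. The Mir125b-1 hairpin (chr9:41581926-41582002, plus strand) encodes miR-125b-1-3p and, together with Mir125b-2, miR-125b-5p. It is shown because these miRNAs gave different tissue differences, though that of its own 5p arm was not measured apart from Mir125b-2. Capitals mark the 5p arm and then the 3p arm.
Mir125b-1: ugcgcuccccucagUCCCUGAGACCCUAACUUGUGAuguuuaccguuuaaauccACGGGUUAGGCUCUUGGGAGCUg

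The values below are processed fluorescence intensities, background-subtracted by the scanner software and averaged over the probes of a miRNA, or log2 of the intensity divided by the array's 75th percentile (relative signal), with low values raised to a floor. A miRNA was detected where the software called it so and a probe total exceeded 3 times its error. No spot was saturated, and 478 to 582 miRNAs were detected per hypothalamus array and 332 to 403 per bone marrow array. The neuronal and myeloid markers went with the labelled tissues. The 6 neuronal miRNAs listed were all detected on every hypothalamus array, and on bone marrow arrays 1 of them was. Their summed intensity was 27273 to 28170 in hypothalamus and 57.8 to 129 in bone marrow. The 3 myeloid miRNAs listed summed to 38.7 to 55.4 in hypothalamus and to 10491 to 29148 in bone marrow. The erythroid list was also higher in bone marrow. The 3 lymphoid miRNAs listed went the other way, at 964 to 1098 in hypothalamus and 316 to 787 in bone marrow. In such bulk samples, fewer cells that carry a miRNA and less of it per cell cannot be told apart.

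The 5 members from 5p arms were high in hypothalamus and low in bone marrow. miR-125b-5p had intensities of 15185, 15492, 14645 and 14713 in hypothalamus (amifostine then PBS at 8 Gy, amifostine then PBS at 0 Gy), and a lowest, median and highest of 44.0, 86.0 and 146 over the 10 bone marrow arrays. miR-99a-5p had 1320, 1345, 1325 and 1349 in hypothalamus in the same order, against 21.2, 30.0 and 49.4 in bone marrow. miR-100-5p had 878, 915, 879 and 834 in hypothalamus, against 5.32, 10.6 and 18.2 in bone marrow. Each of these was detected on all 14 arrays. miR-125a-5p had 1257, 1391, 1258 and 1267 in hypothalamus, against 3.70, 8.67 and 15.4 in bone marrow, where 7 of 10 arrays detected it. miR-99b-5p had 309, 346, 312 and 300 in hypothalamus and 1.16, 4.03 and 6.62 in bone marrow, where no array detected it.

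**Figure D1:**
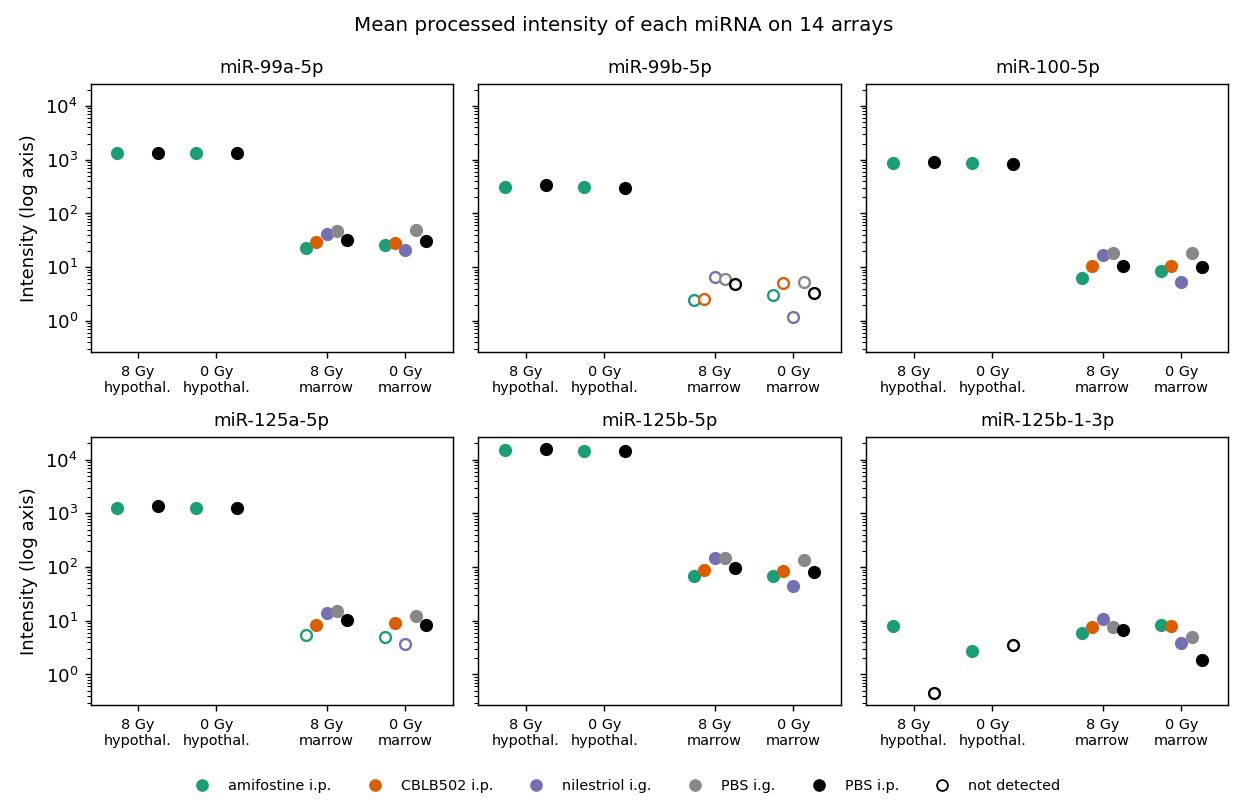
Mean processed intensity (log axis) of each of the 6 miRNAs on all 14 arrays, by tissue and dose, with 1 point per array coloured by pretreatment and open where the miRNA was not detected. The 5p members lie between 300 and 15492 in hypothalamus and between 1.16 and 146 in bone marrow, whereas miR-125b-1-3p overlaps between tissues.

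On the 8 arrays of conditions present in both tissues (amifostine and i.p. PBS at each dose, 4 arrays per tissue), 5 of 6 members were higher in hypothalamus by limma with condition as block. For 1 of the 5, miR-99b-5p, all bone marrow values lay at the floor. The background was high in this comparison: 40.2% of the 530 miRNAs tested passed in that direction at a Benjamini-Hochberg adjusted p of 0.05, and 56% in either. miR-125b-5p was 125-fold higher in hypothalamus (log2 difference 6.97 ± 0.23 SE, limma adjusted p = 2.1e-05) and ranked 16 of 530 from the top. miR-125a-5p differed by 6.77 ± 0.21 (adjusted p = 1.9e-05), with 1 of its bone marrow values at the floor and 2 of 4 arrays detecting it. The size of its difference rests on these low values and ran from 3.696 to 8.985 under the alternatives. miR-100-5p differed by 6.01 ± 0.23 (adjusted p = 3.1e-05). miR-99a-5p differed by 4.93 ± 0.22 (adjusted p = 5.0e-05). With the main settings miR-99b-5p was at least 14.3-fold higher in hypothalamus (log2 3.84), a bound that was not itself tested. Its difference ran from 1.938 to 9.93 under the alternatives, so the lowest value lies below that bound. That bound sets its hypothalamus mean of -0.47 against the lowest signal well above background on each bone marrow array, -4.31 in relative signal (log2), since its own bone marrow values were all at the floor of -5.61. Its limma call (adjusted p = 2.4e-05) is for a difference of 5.14 from that floor. It passed the detection filter through hypothalamus alone, and its bone marrow spread is 0 by construction, so the call adds nothing to the bound.

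The i.p. PBS arrays of both tissues share a slide, and the amifostine arrays do not. With slide as block the 5 differences were 4.73 to 6.77. Each amifostine slide held a single tissue, so that fit drew its tissue difference from the PBS arrays. Over those PBS arrays alone, an alternative added after the data were seen and not a separate check, the differences were 4.58 to 6.62. All passed, miR-99b-5p among them with no bone marrow array detecting it. The software's own totals gave -1.78 for miR-100-5p, and on all 10 bone marrow arrays they exceeded the sum of its own detected probes (1042 to 1974 against 3.67 to 11.9).

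miR-125b-1-3p was low in both tissues. Its intensities were 8.10 and 0.446 in hypothalamus at 8 Gy (amifostine, then PBS) and 2.76 and 3.61 at 0 Gy, and 2 of 4 arrays detected it. In bone marrow the lowest, median and highest were 1.85, 7.14 and 10.6, and all 10 arrays detected it. The tissues overlapped, and the difference was -0.18 ± 0.11 (limma adjusted p = 0.213, 95% interval -0.46 to 0.10), with all 4 hypothalamus values at the floor. Its level rests on 2 of 4 probes. The 14-base probe read 6.75 to 22.4 in hypothalamus and 9.21 to 28.5 in bone marrow, while the 12- and 13-base probes stayed at or below 0.759 on every array. The difference was -1.17 (limma adjusted p = 0.014) with the 14-base probe alone, which was tried after the data were seen. It also passed at -0.54 when all miRNAs set the scaling and at -5.58 in the authors' deposited table, so its call depends on the setting.
miR-125b-1-3p, 14-base probe: agctcccaagagcc
miR-125a-3p, 14-base probe: ggctcccaagaacc
The first pairs over 14 bases with its own miRNA and over 12 with miR-125a-3p, and whether that miRNA adds to its signal was not tested. Likewise the 19-base probe of miR-99a-5p pairs over 18 bases with miR-100-5p, and that of miR-100-5p over 18 with miR-99a-5p. In bone marrow the 19-base miR-100-5p probe read 9.53 to 30.6 and its 18-base probe 1.03 to 7.08. Most spots were well above background on 7 bone marrow arrays for the 19-base probe and on 0 for the 18-base probe. Whether miR-99a-5p adds to the miR-100-5p signal there was not tested.

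All 3 let-7 miRNAs listed were higher in hypothalamus, let-7a-5p not under every scaling. let-7e-5p, encoded between Mir99b and Mir125a, differed by 6.95 ± 0.20 (limma adjusted p = 1.7e-05), with intensities of 4325 to 5056 in hypothalamus and 14.001 to 51.0 in bone marrow. let-7c-5p differed by 2.90 ± 0.27 and let-7a-5p by 1.49 ± 0.24 (limma adjusted p = 0.00068 and 0.0054), and both also arise from other genomic loci. Of the 5 other arms of these hairpins listed, 2 were detected often enough to be tested. miR-99b-3p was higher in hypothalamus by 1.12 ± 0.17 (limma adjusted p = 0.0041). Among its matched bone marrow arrays only that of amifostine at 0 Gy detected it, and the i.p. PBS value at 0 Gy lay at the floor. miR-125a-3p was lower in hypothalamus, by -0.71 ± 0.21 (limma adjusted p = 0.039), at intensities of 62.0 to 161 in hypothalamus and 81.2 to 166 in bone marrow. The direction of miR-125a-3p rests on the scaling: with no scaling the difference was -0.07 ± 0.42 (limma adjusted p = 0.93), and in unscaled intensity the hypothalamus array was the higher one in 2 of the 4 matched pairs. With no scaling the median of all 530 miRNAs was 0.86, against 0.38 in the scaled values and -0.62 when all miRNAs set the scaling. Under that last setting let-7a-5p was at 0.074 and miR-99b-3p at -0.29, neither called, while let-7c-5p and let-7e-5p were called as higher, at 1.48 and 5.53. miR-99b-3p was also negative with normexp, at -0.13. It was positive but not called in the authors' deposited table, with quantile normalization and with scanner totals, at 2.58, 0.54 and 0.47.

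**Figure D2:**
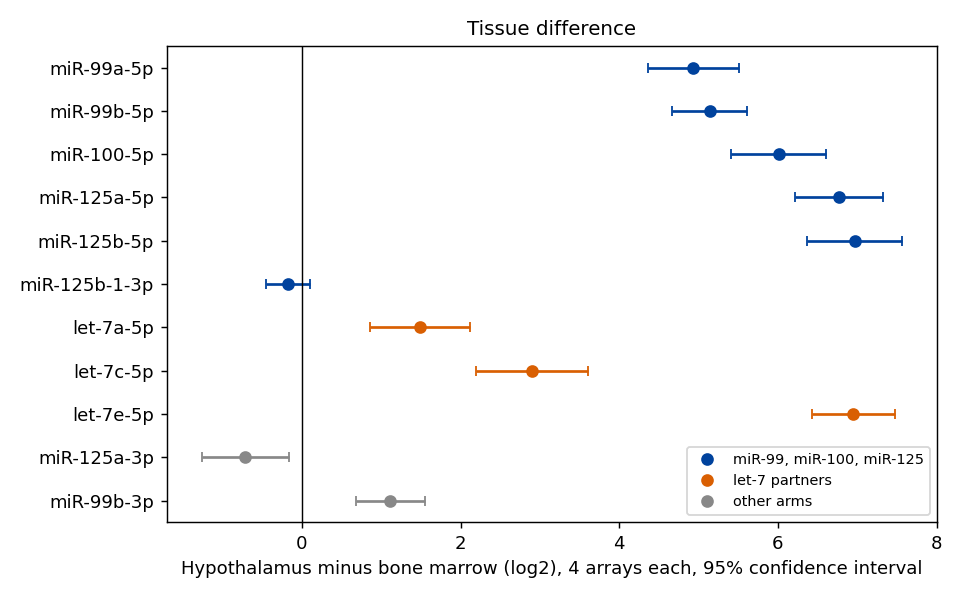
Hypothalamus minus bone marrow on the log2 scale, with 95% confidence intervals from limma over 4 arrays per tissue, for the 6 miRNAs, their let-7 neighbours and the 2 other hairpin arms that could be tested. The 5p members lie from 4.93 to 6.97 and let-7e-5p at 6.95, while both 3p arms of the miR-125 hairpins lie below 0, miR-125b-1-3p with an interval that crosses 0 and miR-125a-3p at -0.07 without scaling; the miR-99b-5p point uses floor values in bone marrow.

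Whether 8 Gy changed the members in bone marrow was asked over the 5 pretreatment arms, each with 1 array per dose and with the arm as block. None of the 5 members that could be tested passed, against 12.7% of 371 miRNAs (9.16% higher and 3.5% lower at 8 Gy), and none had an unadjusted p under 0.05. The differences at 8 Gy over 0 Gy were 0.50 ± 0.31 for miR-125b-5p, 0.24 ± 0.17 for miR-125a-5p, 0.23 ± 0.22 for miR-99a-5p, 0.21 ± 0.23 for miR-100-5p and 0.09 ± 0.13 for miR-125b-1-3p (limma adjusted p = 0.28 to 0.57). The 95% interval for miR-125b-5p ran from -0.26 to 1.25, which includes a doubling at 8 Gy. miR-99b-5p was not detected in bone marrow and has no value there.

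The nilestriol arm set most of these averages. In that arm miR-125b-5p had an intensity of 145 at 8 Gy against 44.0 at 0 Gy, a log2 difference of 1.95 in relative signal, whereas in the amifostine, CBLB502, i.g. PBS and i.p. PBS arms the differences were 0.40, 0.10, 0.0053 and 0.029. miR-99a-5p was 41.0 at 8 Gy against 21.2 at 0 Gy in the nilestriol arm (1.18), and -0.17 to 0.19 in the other arms. miR-100-5p was 17.1 against 5.32 (1.27, with the 0 Gy value at the floor), and -0.16 to 0.09 elsewhere. The nilestriol array was the highest of the 5 at 8 Gy and the lowest of the 5 at 0 Gy for each of these 3 in relative signal. Without that arm, the difference was 0.13 for miR-125b-5p, 0.070 for miR-125a-5p, -0.011 for miR-99a-5p, -0.063 for miR-100-5p and -0.034 for miR-125b-1-3p, none of them called. Over the PBS arms alone it was 0.032 ± 0.068 for miR-125b-5p and -0.15 to 0.15 for the others, and limma called none of 362 miRNAs (0%; 107 had an unadjusted p under 0.05, no member among them).

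**Figure D3:**
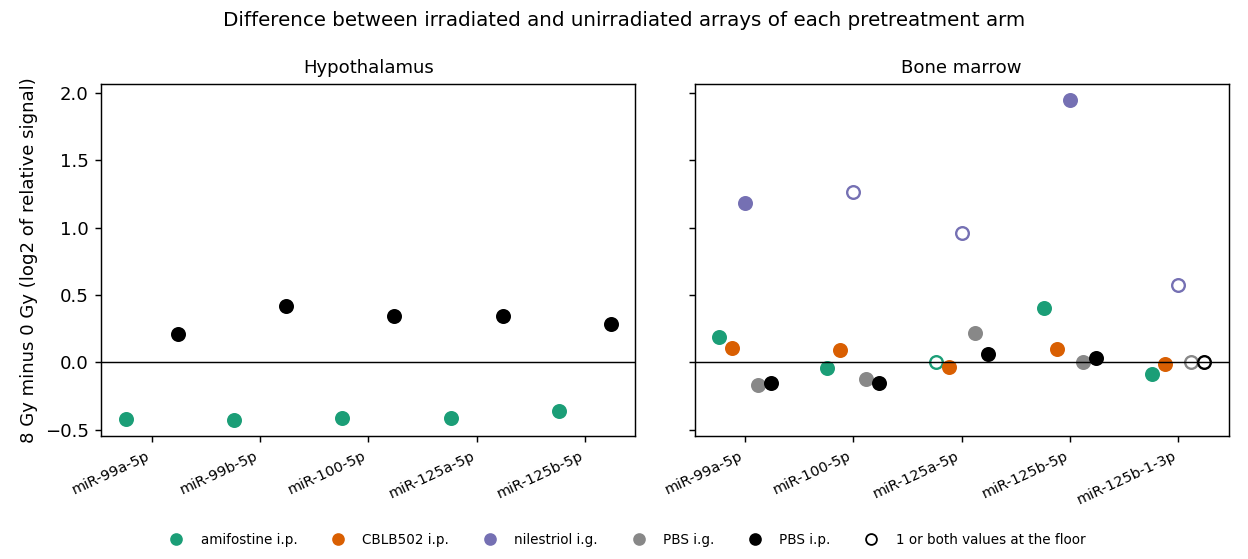
Log2 of relative signal at 8 Gy minus that at 0 Gy, 1 point per pretreatment arm, in hypothalamus (left) and bone marrow (right), open where a value lay at the floor. In bone marrow the nilestriol arm lies above the other arms for each miRNA shown, at 1.95 for miR-125b-5p; in hypothalamus the PBS arm lies above 0 and the amifostine arm below 0 for all 5.

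Set against the PBS arms, the nilestriol by irradiation difference was 1.93 ± 0.30 for miR-125b-5p, 1.41 ± 0.41 for miR-100-5p, 1.34 ± 0.23 for miR-99a-5p, 0.82 ± 0.21 for miR-125a-5p and 0.58 ± 0.10 for miR-125b-1-3p. None of the 371 miRNAs passed limma here (background 0%; limma adjusted p = 0.13 to 0.20 for these members), while 85 had an unadjusted p under 0.05, these 5 among them. For miR-125b-1-3p all 4 PBS values and the 0 Gy nilestriol value lay at the floor, so its PBS spread is 0 by construction and its test supports nothing. For miR-100-5p and miR-125a-5p the 0 Gy nilestriol value lay at the floor, so their differences and errors depend on where the floor was set. The model assumes that each lone nilestriol array varies like the PBS pairs. Under the alternatives the count of members called ran from 0 to 4, and it was 4 when an offset replaced the floor. In that arm the median difference was 1.22 over the 4 tested 5p members and 0.089 over all 371 miRNAs.

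Marker miRNAs of other cell types also differed in the same arm, with no test. The 6 stromal miRNAs tested had a median 8 minus 0 Gy difference of 1.29 in the nilestriol arm, the 3 muscle miRNAs 1.55, the 2 endothelial ones 1.34 and the 3 erythroid ones 2.003. The 3 myeloid miRNAs had a median of 0.15 there and the 3 lymphoid ones -0.16, the lymphoid ones all below 0. In the other arms the erythroid median was 0.74 to 1.66, that of the muscle list -0.20 to 0.91, that of the stromal list -0.13 to 0.67 and that of the endothelial list 0.20 to 0.38. Erythroid medians were thus above 0 in all 5 arms, and the muscle and stromal lists had their next highest medians after amifostine. The summed stromal signal relative to the array's 75th percentile was 2.34 at 8 Gy and 1.08 at 0 Gy in the nilestriol arm, and in the other arms 2.15 to 2.87 at 8 Gy and 1.397 to 2.09 at 0 Gy. The endothelial sum was 1.25 at 8 Gy and 0.279 at 0 Gy in the nilestriol arm, and in the other arms 0.554 to 1.19 at 8 Gy and 0.422 to 0.858 at 0 Gy. Both sums were thus lowest on the nilestriol array at 0 Gy, while at 8 Gy its stromal sum lay within the range of the other arms. That stromal sum was mostly miR-140-3p, at an intensity of 472 out of 660 on the 8 Gy nilestriol array. Each other stromal miRNA measured was highest there among the 8 Gy marrow arrays in relative signal. The part of these cell types in the members' values was not tested.

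In hypothalamus no member passed limma for irradiation, nor did any of the 544 miRNAs (background 0%; 0 had an unadjusted p under 0.05), in a fit with 4 arrays. The estimates were -0.11 ± 0.28 for miR-99a-5p and between -0.039 and -0.0050 for the other 5p members (limma adjusted p = 1.0). The 95% interval for miR-125b-5p was -1.24 to 1.16, which includes a doubling in either direction. The PBS arm gave 8 minus 0 Gy differences of 0.21 to 0.42 and the amifostine arm -0.36 to -0.43 over the 5p members. Before scaling the same arrays were close: miR-99a-5p read 1345 at 8 Gy and 1349 at 0 Gy after PBS, and 1320 and 1325 after amifostine. The scaling percentile itself was 285 at 8 Gy and 330 at 0 Gy after PBS, and 370 and 277 after amifostine. With no scaling, 4 of the 5 estimates turned positive, so no direction is given. The tissue by irradiation difference was called by limma for none of the 530 miRNAs tested (0%; 17 had an unadjusted p under 0.05, no member among them).

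Each drug was compared with the 4 PBS bone marrow arrays over both doses. CBLB502 gave calls for 12.1% of 371 miRNAs (5.39% higher and 6.74% lower than PBS), and for none of the members, whose differences ran from -0.42 ± 0.28 for miR-99a-5p to 0.14 ± 0.16 for miR-125b-1-3p (limma adjusted p = 0.28 to 0.55). Amifostine gave no limma call among 371 (0%; 76 had an unadjusted p under 0.05). Its differences were -0.80 ± 0.32 for miR-100-5p (unadjusted p = 0.040 from limma, adjusted p = 0.22) and -0.61 ± 0.22 for miR-125a-5p (unadjusted p = 0.027 from limma, adjusted p = 0.19). For miR-100-5p the intensities were 6.197 at 8 Gy and 8.48 at 0 Gy after amifostine, against 10.6 to 18.1 at 8 Gy and 10.2 to 18.2 at 0 Gy after PBS. miR-125a-5p was not detected on either amifostine array, and both values lay at the floor, so its difference depends on where the floor was set. Since no slide carried both amifostine and PBS marrow, slide and drug cannot be told apart. In hypothalamus, amifostine minus PBS was -0.14 to -0.056 over the 5p members, each with a standard error of 0.28 to 0.34, and limma called none of 544 miRNAs (0%; 1 had an unadjusted p under 0.05, not a member).

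Nilestriol gave no limma call over both doses (0% of 371; 95 had an unadjusted p under 0.05), with differences of -0.53 ± 0.40 for miR-125b-5p and -0.49 ± 0.28 for miR-99a-5p (limma adjusted p = 0.37 and 0.25). This average joins an irradiated array above i.g. PBS and an unirradiated one below it: for miR-125b-5p, 0.30 at 8 Gy and -1.65 at 0 Gy. Without the 8 Gy nilestriol array 4 members were called lower, at -1.44, -1.08, -0.96 and -0.61 for miR-125b-5p, miR-99a-5p, miR-100-5p and miR-125a-5p, among 95 of 363 miRNAs. Without the 0 Gy array the same 4 were positive, at 0.13 to 0.41, and none was called. Nilestriol also shared its slide with amifostine and not with PBS.

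Amifostine and nilestriol are unrelated in structure and were given at different doses, routes and times, so their values are given side by side: miR-125b-5p read 67.4 at 8 Gy and 67.7 at 0 Gy after amifostine, and 145 and 44.0 after nilestriol. Between the PBS routes limma called none of 371 miRNAs (0%; 5 had an unadjusted p under 0.05). Against i.p. PBS, i.g. PBS had higher intensities for all 4 detected 5p members at both doses. For miR-125b-5p they were 146 against 94.6 at 8 Gy and 134 against 80.0 at 0 Gy. The 75th percentile of the i.g. arrays was higher as well, 348 against 273 at 8 Gy and 320 against 235 at 0 Gy. In relative signal the miR-125b-5p difference was 0.29 ± 0.49 (limma adjusted p = 1.0). That difference was smaller than its standard error. At 8 Gy alone, and for CBLB502 and amifostine by irradiation, limma called no member either (0% of 371 in each). At 8 Gy 123 miRNAs for CBLB502, 40 for amifostine and 36 for nilestriol had an unadjusted p under 0.05. miR-125a-5p was among the 40, at -0.68 ± 0.15. Its amifostine value lay at the floor and was not detected, so this difference depends on where the floor was set. miR-125b-1-3p was among the 36, at 0.58 ± 0.067, a test that supports nothing since its PBS values all lay at the floor. By irradiation the counts were 38 for CBLB502 and 61 for amifostine, with no member among them.

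Among the 15 stem and progenitor miRNAs listed, 12 could be tested in bone marrow. At 8 Gy 3 of them were higher (9.16% of all 371 were), miR-22-3p by 0.90 ± 0.15, miR-222-3p by 0.65 ± 0.15 and miR-221-3p by 0.48 ± 0.10 (limma adjusted p = 0.019, 0.043 and 0.028), and none was lower. Their median was 0.35, that of the 5 tested members 0.23 and that of all 371 miRNAs 0.086. After CBLB502 1 of the 12 was lower (6.74% of all 371 were), miR-10a-5p at -0.90 ± 0.19 (limma adjusted p = 0.045). Between tissues, 6 of 13 tested were higher and 5 lower in hypothalamus (40.2% and 15.8% of all 530), where the 5p members were all higher; miR-10a-5p, a miRNA of the Hox clusters, was lower by -4.40 ± 0.23 (limma adjusted p = 9.3e-05).

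Across the 10 bone marrow arrays, Pearson's r was 0.96 between miR-99a-5p and miR-125b-5p, 0.92 between miR-99a-5p and miR-100-5p and 0.88 between miR-100-5p and miR-125b-5p (rho 0.94 for each); all points share each array's scaling. Without both nilestriol arrays these were 0.94, 0.92 and 0.90. The 19-base probes of miR-99a-5p and miR-100-5p each pair over 18 bases with the other miRNA, and the part of this in their r was not tested. miR-125b-1-3p had r of 0.41 with miR-125b-5p (rho -0.019), and -0.56 without the nilestriol arrays, with 5 of its 10 values at the floor. Among the 292 other miRNAs detected on all 10 arrays, the 3 most like miR-125b-5p were let-7e-5p (r = 0.99, Spearman's rho 0.99), miR-199a-3p (0.98, rho 0.90) and miR-199a-5p (0.97, rho 0.94). For let-7e-5p r was 0.97 without the 2 arrays farthest from its median, both of nilestriol. For miR-99a-5p the 3 were miR-199a-5p (0.95), miR-199a-3p (0.94) and let-7e-5p (0.93), and for miR-100-5p they were let-7e-5p (0.90), miR-126-3p (0.89) and miR-199a-3p (0.84). let-7a-5p, whose Mirlet7a-2 gene lies between Mir100 and Mir125b-1, had r of 0.76 with miR-125b-5p (rho 0.47) and 0.43 without the nilestriol arrays. For miR-125b-1-3p the highest r was 0.52, with miR-214-3p.

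**Figure D4:**
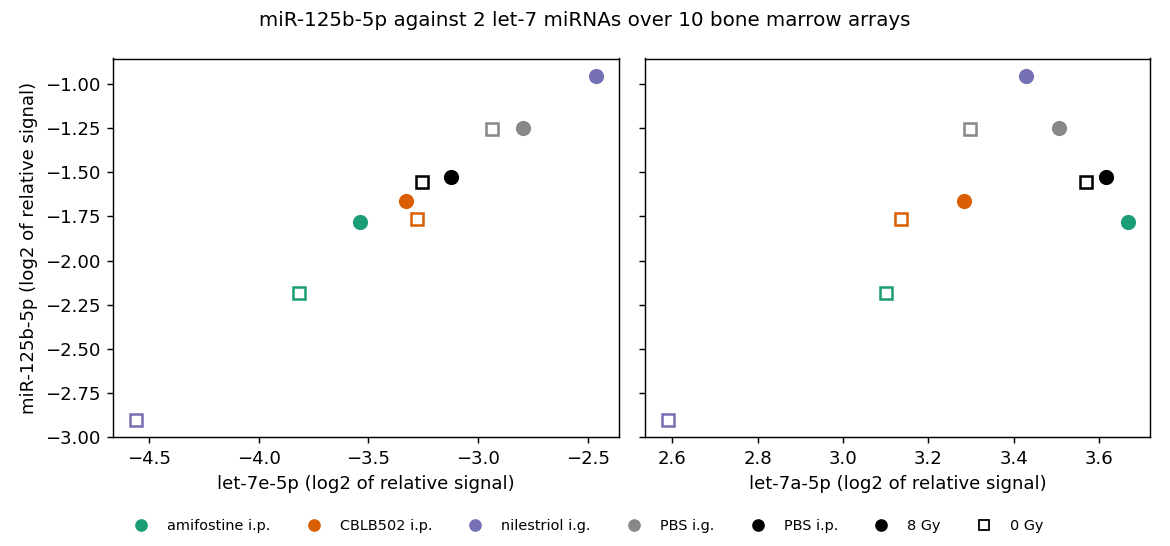
Log2 relative signal of miR-125b-5p against let-7e-5p (left) and let-7a-5p (right) on the 10 bone marrow arrays, with filled circles at 8 Gy, open squares at 0 Gy and colours for pretreatment. The points follow a line for let-7e-5p (r = 0.99) and spread for let-7a-5p (r = 0.76), and the nilestriol arrays are the lowest and highest for miR-125b-5p.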

How the data were processed

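RNA was labelled with Cy3 and hybridised to 1-colour Agilent arrays. The deposited scanner files hold spot intensity made by the authors with Feature Extraction 10.7.1.1, background-subtracted per the file headers. The authors also deposited log2 values, whose scaling is not given in the sources used here; these served as an alternative. Here outlier spots (4.42% to 5.27% per array) were left out, spots were averaged per probe and probes per miRNA. Each array was scaled to its 75th percentile, taken from miRNAs detected throughout the fit. Low values were raised to a floor (the 5th percentile of detected miRNAs, median of the arrays) before log2. miRNAs detected on at least 50% of arrays were tested with limma 3.58.1 in R 4.3.3 (lmFit, eBayes; two-sided), and checked on simulated data. In all, 17 comparisons were run, each repeated under other background, scaling, floor, filter and probe settings. Only some of them were also repeated with other slide settings, or without single arrays, arms or conditions. The named miRNAs were all members, their let-7 neighbours and other arms, a stem cell list and, for each member detected on all bone marrow arrays, the 3 most correlated miRNAs. Members and lists were chosen with earlier results of these data known. Tables were made with Python 3.11.15, and the number of arrays limits the precision; since no condition has a second array, p-values measure only the spread between these arrays.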

Additional observations from a re-analysis of the deposited data

Results flagged for a closer look

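miR-125b-1-3p on the 8 Gy nilestriol bone marrow array had a log2 relative signal of -4.73, against -5.31 to -5.18 on the other 4 bone marrow arrays at 8 Gy, a gap of 0.768 of the whole range. It was flagged as a sample far from the others. 2 of those 4 arrays lay at the floor and their order is unknown. Among 19 combinations of member and group examined, this was the 1 flagged, and chance flags about 1 in 20. The 5 arrays carry different pretreatments, so they are not replicates of 1 condition.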

How the results depend on the processing

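Of 1232 member differences recomputed under an alternative, 1081 kept their direction and side of the threshold, 125 changed sign, 26 became called and none lost a call. Of the 125, 84 were within 1 SE of 0 and called in neither fit. The count of members called changed in 17 of 237 repeats. The PBS arrays alone for the tissue difference, each PBS array left out for nilestriol by irradiation, the 14-base probe of miR-125b-1-3p and the correlations without nilestriol arrays were chosen after seeing the data, as were the alternatives for the let-7 neighbours and other arms. The 5p members kept the tissue difference in every alternative that tested them, at 1.94 to 9.93, except miR-100-5p with scanner totals. Scanner totals carried over from the preceding miRNA on all 10 bone marrow arrays for miR-100-5p and miR-125b-1-3p and on 7 for miR-125a-5p, so on those arrays the totals hold another miRNA's signal. No paired analysis was possible because each combination has 1 array, so the groups share fewer than 2 replicate numbers; this concerns replicate numbers only, since the tissue fit is paired by condition and the bone marrow irradiation fit by pretreatment arm.

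The number of members called was 5 for the tissue difference and 3 when miRNAs had to be detected on all arrays, since fewer were then tested. The 5 include miR-99b-5p, which no bone marrow array detected. For nilestriol by irradiation the number called was 0, and 1 with normexp, 4 with an offset, 1 without a filter, 1 with scanner totals, 2 in the authors' deposited table and 1 with an intensity trend. miR-125b-1-3p was called in 2 of these alternatives. In the main fit all its PBS values lie at the floor, so its calls are not taken as support. At 8 Gy the number of members called was 0 in each drug comparison. Without a filter it was 1 for each drug at 8 Gy, and 1 for CBLB502 and amifostine by irradiation; all of these were miR-125b-1-3p, whose PBS values all lie at the floor, which gives variances of 0, so they support nothing. It was also 1 for CBLB502 and 1 for amifostine at 8 Gy in the authors' deposited table, 1 for amifostine with scanner totals, and 1 for nilestriol at 8 Gy with an intensity trend. The cause of the other changes was not tested.

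Leaving out 1 arm gave bone marrow irradiation values of -0.063 to 0.28 for miR-100-5p, -0.034 to 0.14 for miR-125b-1-3p and -0.011 to 0.33 for miR-99a-5p. Leaving out 1 array gave amifostine against PBS values of -0.067 to 0.19 for miR-125b-1-3p. For nilestriol against PBS they were -0.96 to 0.41 for miR-100-5p, -0.61 to 0.33 for miR-125a-5p, -1.44 to 0.40 for miR-125b-5p, -1.08 to 0.13 for miR-99a-5p and -0.013 to 0.55 for miR-125b-1-3p, with 0 to 4 members called.

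The log2 differences that changed sign were these. Under scanner totals, the tissue difference was -1.78 for miR-100-5p. Bone marrow irradiation under scanner totals was -0.069 for miR-125b-1-3p. Under scanner totals, irradiation of the PBS arms was 0.23 for miR-100-5p. Hypothalamus irradiation under scanner totals was 0.14 for miR-100-5p, 0.14 for miR-125a-5p, 0.14 for miR-125b-5p, 0.068 for miR-99a-5p and 0.17 for miR-99b-5p. Under scanner totals, tissue by irradiation was -0.44 for miR-100-5p and 0.058 for miR-125a-5p. CBLB502 against PBS in bone marrow under scanner totals was 0.47 for miR-125a-5p. Under scanner totals, amifostine against PBS in bone marrow was 0.062 for miR-100-5p. Amifostine against nilestriol under scanner totals was 0.48 for miR-100-5p and 0.053 for miR-125b-1-3p. Under scanner totals, the PBS route comparison was -0.19 for miR-100-5p. CBLB502 against PBS at 8 Gy under scanner totals was 0.30 for miR-125a-5p. Under scanner totals, amifostine against PBS at 8 Gy was 0.40 for miR-100-5p. Nilestriol against PBS at 8 Gy under scanner totals was -0.26 for miR-100-5p. Under scanner totals, CBLB502 by irradiation was -0.0072 for miR-125b-5p. Nilestriol by irradiation under scanner totals was -0.10 for miR-125b-1-3p. Under scanner totals, hypothalamus after amifostine was 0.10 for miR-100-5p, 0.013 for miR-125a-5p, 0.073 for miR-125b-5p, 0.065 for miR-99a-5p and 0.038 for miR-99b-5p. Bone marrow irradiation under slide 1 alone was -0.050 for miR-100-5p and -0.060 for miR-99a-5p. Under normexp, irradiation of the PBS arms was -0.074 for miR-125a-5p and -0.014 for miR-125b-5p. Tissue by irradiation under normexp was -0.11 for miR-100-5p and -0.057 for miR-99b-5p. Under normexp, amifostine against PBS in bone marrow was -0.0021 for miR-125b-1-3p. Nilestriol against PBS in bone marrow under normexp was -0.054 for miR-125b-1-3p. Under normexp, amifostine against nilestriol was 0.017 for miR-125a-5p, 0.052 for miR-125b-1-3p and 0.042 for miR-99a-5p. The PBS route comparison under normexp was -0.15 for miR-100-5p, -0.17 for miR-125a-5p and -0.078 for miR-99a-5p. Under normexp, CBLB502 against PBS at 8 Gy was 0.063 for miR-100-5p and 0.030 for miR-125a-5p. Amifostine against PBS at 8 Gy under normexp was 0.024 for miR-100-5p and 0.021 for miR-125a-5p. Under normexp, nilestriol against PBS at 8 Gy was -0.013 for miR-125a-5p and -0.045 for miR-125b-1-3p. CBLB502 by irradiation under normexp was 0.16 for miR-125a-5p and 0.092 for miR-125b-1-3p. Under normexp, amifostine by irradiation was 0.18 for miR-125a-5p and 0.12 for miR-125b-1-3p. Irradiation of the PBS arms under no scaling was 0.025 for miR-100-5p and 0.0060 for miR-99a-5p. Under no scaling, hypothalamus irradiation was 0.065 for miR-100-5p, 0.067 for miR-125a-5p, 0.063 for miR-125b-5p and 0.097 for miR-99b-5p. Tissue by irradiation under no scaling was 0.18 for miR-125b-1-3p and 0.073 for miR-99a-5p. Under no scaling, amifostine against PBS at 8 Gy was -0.053 for miR-125b-1-3p. CBLB502 by irradiation under no scaling was -0.018 for miR-100-5p and -0.17 for miR-125b-5p. Under no scaling, amifostine by irradiation was -0.26 for miR-100-5p, -0.19 for miR-125b-5p and -0.22 for miR-99a-5p. Hypothalamus after amifostine under no scaling was 0.0086 for miR-100-5p. Under scaling over all miRNAs, hypothalamus irradiation was 0.046 for miR-100-5p, 0.048 for miR-125a-5p, 0.044 for miR-125b-5p and 0.078 for miR-99b-5p. Tissue by irradiation under scaling over all miRNAs was 0.0019 for miR-99a-5p and -0.058 for miR-99b-5p. Under scaling over all miRNAs, amifostine against PBS in bone marrow was -0.031 for miR-125b-1-3p. CBLB502 against PBS at 8 Gy under scaling over all miRNAs was -0.099 for miR-125b-1-3p. Under scaling over all miRNAs, amifostine against PBS at 8 Gy was -0.11 for miR-125b-1-3p. Nilestriol against PBS at 8 Gy under scaling over all miRNAs was -0.083 for miR-99a-5p. Under scaling over all miRNAs, CBLB502 by irradiation was -0.13 for miR-125b-5p. Hypothalamus irradiation under quantile normalization was 0.060 for miR-100-5p, 0.12 for miR-125a-5p, 0.056 for miR-125b-5p, 0.024 for miR-99a-5p and 0.077 for miR-99b-5p. Under quantile normalization, tissue by irradiation was 0.19 for miR-125a-5p, 0.47 for miR-125b-1-3p, 0.0012 for miR-125b-5p and 0.19 for miR-99a-5p. Amifostine against PBS in bone marrow under quantile normalization was -0.0063 for miR-125b-1-3p. Under quantile normalization, CBLB502 against PBS at 8 Gy was -0.013 for miR-125b-1-3p. Amifostine against PBS at 8 Gy under quantile normalization was -0.055 for miR-125b-1-3p. Under quantile normalization, CBLB502 by irradiation was -0.15 for miR-125b-5p. Hypothalamus after amifostine under quantile normalization was 0.056 for miR-125b-5p. Under the authors' deposited table, hypothalamus irradiation was 0.095 for miR-100-5p, 0.14 for miR-125a-5p, 0.18 for miR-125b-5p, 0.0050 for miR-99a-5p and 0.065 for miR-99b-5p. Tissue by irradiation under the authors' deposited table was -0.050 for miR-100-5p, 0.020 for miR-125a-5p, 0.075 for miR-125b-5p, 0.17 for miR-99a-5p and -0.020 for miR-99b-5p. Under the authors' deposited table, nilestriol against PBS in bone marrow was -1.25 for miR-125b-1-3p. Amifostine against nilestriol under the authors' deposited table was 0.27 for miR-100-5p and 1.41 for miR-125b-1-3p. Under the authors' deposited table, the PBS route comparison was -0.015 for miR-125a-5p. CBLB502 against PBS at 8 Gy under the authors' deposited table was -0.85 for miR-125b-1-3p. Under the authors' deposited table, amifostine against PBS at 8 Gy was -0.085 for miR-125b-1-3p. Nilestriol against PBS at 8 Gy under the authors' deposited table was -0.065 for miR-100-5p and -0.25 for miR-125a-5p. Under the authors' deposited table, CBLB502 by irradiation was -0.010 for miR-100-5p and -0.14 for miR-125b-5p. Tissue by irradiation under an offset was -0.039 for miR-99b-5p. Under an offset, amifostine against nilestriol was 0.095 for miR-125b-1-3p. Amifostine by irradiation under an offset was 0.15 for miR-125a-5p. Under keeping outlier spots, tissue by irradiation was -0.054 for miR-100-5p. Amifostine against PBS at 8 Gy under keeping outlier spots was -0.0061 for miR-125b-1-3p. Under keeping outlier spots, CBLB502 by irradiation was 0.0084 for miR-125b-1-3p. Amifostine against nilestriol under the 14-base probe was 0.22 for miR-125b-1-3p. The cause of these sign changes was not tested. Intensities of miR-99b-5p, miR-125a-5p and miR-125b-1-3p in bone marrow lay near or at the floor, which limits every difference there.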
